A study of Mus musculus with 9 samples.

Results

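The 10 genes described here run the fusion, fission and mitophagy of mitochondria: Mfn1, Mfn2, Opa1, Dnm1l, Mff, Fis1, Pink1, Bnip3, Bnip3l and Usp30. They were chosen by name out of 21938 protein-coding genes of the GENCODE M21 annotation. No peak value was part of the rule, but earlier results of these data were known. Each gene was looked up in all 9 peak lists of the study. A promoter was the window of 1 kb on each side of any annotated transcription start site (TSS) of the gene, and a region was the gene body with 20 kb on each side. A peak is a stretch of genome in which a library held more DNA tags than its surroundings. Its strength is given as the −log10 of its q-value, and its place is its rank by that value as a percentage of the list, so that a small percentage is a strong peak for that library.

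Mitochondria are constantly joined and divided. Mfn1 and Mfn2 are GTPases that join the outer membranes and Opa1 is the GTPase that joins the inner membranes, whereas the GTPase Dnm1l (Drp1) is drawn from the cytosol to the outer membrane, where Mff acts as its receptor and Fis1 as a further adaptor, and pinches the organelle apart. Damaged or surplus mitochondria are removed by mitophagy: the kinase Pink1 marks them through ubiquitin, the outer membrane proteins Bnip3 and Bnip3l (Nix) tie them directly to the autophagosome, and the deubiquitinase Usp30 takes ubiquitin off again and so opposes the pathway. In beige fat, mitochondrial number falls through mitophagy when the cells return to a white state.

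The libraries came from inguinal white adipose tissue (iWAT) of male mice on a C57BL/6J background. Ets1 binding was profiled by CUT&Tag, in which an antibody directs a transposase to its target, in 3 libraries: beige adipocytes grown over 6 days in culture from the stromal vascular fraction of mice of 3 to 4 weeks with insulin, dexamethasone, T3, rosiglitazone and IBMX, mature adipocytes of wild type mice of 8 to 10 weeks after 7 days of cold stress (CS), and mature adipocytes of wild type mice of that age kept at room temperature (RT). H3K27ac, a histone mark of active promoters and enhancers, was profiled by CUT&Tag in mature adipocytes of EA+/+ mice (Ets1 ki/ki with Adipoq-cre), EC+/+ mice (Ets1 ki/ki without cre), EAKO mice (Ets1 f/f with Adipoq-cre) and Flox mice (Ets1 f/f), all of 8 to 10 weeks. Open chromatin was profiled by ATAC in mature adipocytes of EAKO and Flox mice. Adipoq-cre acts in adipocytes, so other cells of the floating fraction keep the control genotype, and the EC+/+ and Flox mice carry the same Ets1 allele as their partners. Beige cells differ from CS cells in age, culture and hormones, which cannot be told apart.

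Each group was 1 library with peaks called on that library alone, so the spread between animals is unknown, no difference could be tested, and every count below is a description of these libraries. The lists held 30553, 14858 and 4056 Ets1 peaks in beige, CS and RT, 38484 and 33713 H3K27ac peaks in EA+/+ and EC+/+, 74682 and 86834 in EAKO and Flox, and 82839 and 88977 ATAC peaks in EAKO and Flox. Of 10 adipocyte marker genes, 7, 4 and 0 had an Ets1 promoter peak in beige, CS and RT, beside 46.4%, 32.7% and 4.06% of all genes. H3K27ac promoter peaks were at 6 or 7 in each library, beside 50.4% to 63.9% of all genes. ATAC promoter peaks were at 7 in EAKO and 7 in Flox, near the 66.0% and 67.7% of all genes. All 7 progenitor markers had an H3K27ac promoter peak in EAKO and in Flox, and 3 had one in EA+/+ and 4 in EC+/+. An ATAC promoter peak lay at 6 of the 7 in EAKO and at 6 in Flox. Macrophage markers with a promoter peak numbered 0 to 2 of 6 and endothelial markers 0 to 4 of 5 over the 9 lists, and their part in the values below was not tested. The Ets1 gene itself, at chr9:32636221-32757820, had 2 ATAC promoter peaks in EAKO and 2 in Flox. Its gene body, which holds the floxed exons, had 14 ATAC peaks in EAKO and 16 in Flox, and 16 H3K27ac peaks in EAKO and 18 in Flox. Peak lists hold no transcript levels, so they do not measure the deletion.

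At the level of counts, Ets1 promoter peaks were found at 8 of the 10 genes in beige, 8 in CS and 2 in RT, beside 46.4%, 32.7% and 4.06% of all genes in those lists. H3K27ac marked the promoters of 9 genes in EA+/+ and 10 in EC+/+, beside 50.4% and 52.0% of all genes, and of 9 in EAKO and 10 in Flox, beside 60.5% and 63.9%. ATAC peaks lay at all 10 promoters in EAKO and in Flox, beside 66.0% and 67.7% of all genes. The 10 genes have a median of 6.5 annotated TSS, from 3 to 15, against 3 for all genes, so they offered more sequence in which a peak could fall. Of the 14858 genes that were open at the promoter in Flox ATAC, 68.1%, 47.4% and 5.80% had an Ets1 promoter peak in beige, CS and RT. For H3K27ac the shares of these open genes were 71.1% in EA+/+, 73.7% in EC+/+, 86.6% in EAKO and 90.6% in Flox. This is the nearer comparison for genes whose promoters were all open.

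**Figure D1:**
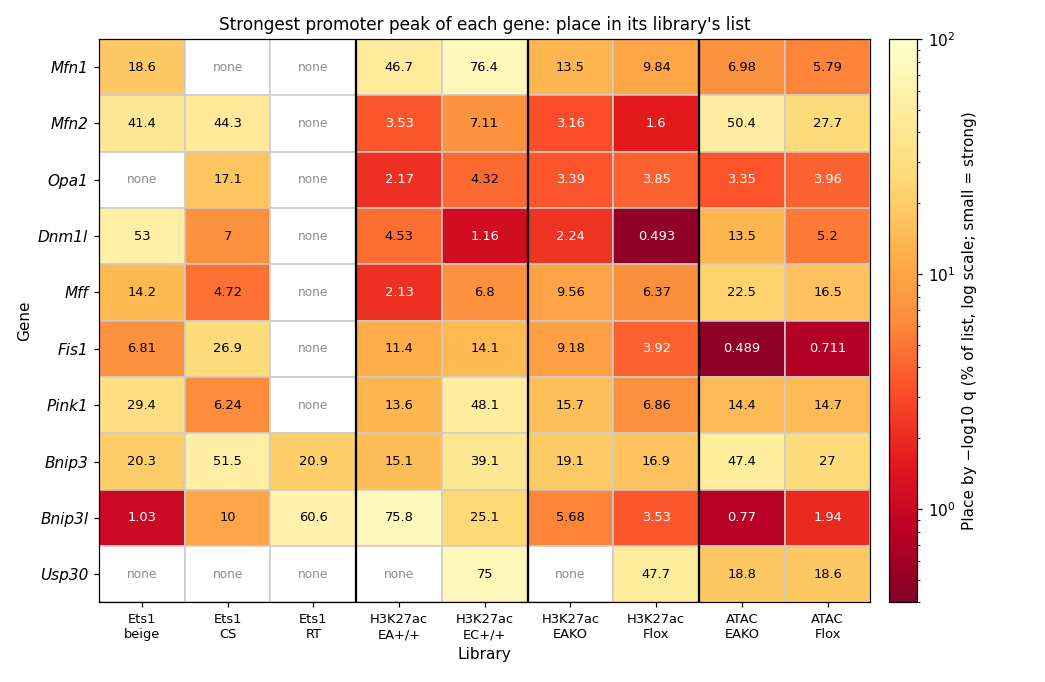
Place of the strongest promoter peak of each gene (rows) in the list of each library (columns), as a percentage of that list on a log colour scale, where small values are strong peaks and "none" marks a promoter without a peak. Bnip3 and Bnip3l had a peak in all 9 lists, and Usp30 in 4 lists and in no Ets1 list.

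Promoter sequences from RefSeq (build GRCm38.p6, the assembly of mm10) were read to see which of these promoters hold the letters CCGGAA, the core that ETS factors prefer, on either strand. The promoter table held 9 of the 10 genes, all but Bnip3l, with 14 start sites among them. CCGGAA was present in 5 of these 14 promoters, of 4 genes, beside 14.9% of all 32851 promoters of the same 300 bases, and the same letters in reverse order, AAGGCC, were present in 1 of the 14, beside 16.5% of all. The 6 stretches below run from 150 bases before the RefSeq start through the first 28 bases from it and are shown because they cover the contrasts in the Ets1 lists: Mfn1 with a beige peak, both promoters of Fis1 with beige and CS peaks, Usp30 with no Ets1 peak, Opa1 with a CS peak and Mff with strong CS and beige peaks. Capitals mark CCGGAA, the shorter core GGAA, and their reverse complements TTCCGG and TTCC.
Mfn1, chr3:32529332-32529509, plus strand: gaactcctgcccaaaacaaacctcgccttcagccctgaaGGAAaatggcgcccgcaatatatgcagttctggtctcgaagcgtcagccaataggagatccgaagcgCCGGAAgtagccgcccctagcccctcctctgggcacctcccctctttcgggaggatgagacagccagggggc
Fis1, upstream start, chr5:136953125-136953302, plus strand: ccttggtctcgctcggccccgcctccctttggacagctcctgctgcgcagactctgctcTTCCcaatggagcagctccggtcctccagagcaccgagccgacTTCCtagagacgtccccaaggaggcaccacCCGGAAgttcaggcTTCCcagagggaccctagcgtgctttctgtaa
Fis1, principal start, chr5:136961927-136962104, plus strand: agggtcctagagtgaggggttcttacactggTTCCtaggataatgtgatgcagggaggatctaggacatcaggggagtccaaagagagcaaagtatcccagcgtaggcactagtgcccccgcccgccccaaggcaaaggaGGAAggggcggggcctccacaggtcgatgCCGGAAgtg
Usp30, chr5:114100183-114100360, plus strand: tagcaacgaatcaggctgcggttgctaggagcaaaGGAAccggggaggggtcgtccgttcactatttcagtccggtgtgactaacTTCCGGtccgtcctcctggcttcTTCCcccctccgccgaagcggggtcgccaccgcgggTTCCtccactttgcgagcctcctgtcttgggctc
Opa1, chr16:29579184-29579361, plus strand: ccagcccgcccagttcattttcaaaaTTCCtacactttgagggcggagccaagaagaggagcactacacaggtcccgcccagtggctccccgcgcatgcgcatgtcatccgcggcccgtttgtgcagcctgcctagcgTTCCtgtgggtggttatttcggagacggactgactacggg
Mff, chr1:82724740-82724917, plus strand: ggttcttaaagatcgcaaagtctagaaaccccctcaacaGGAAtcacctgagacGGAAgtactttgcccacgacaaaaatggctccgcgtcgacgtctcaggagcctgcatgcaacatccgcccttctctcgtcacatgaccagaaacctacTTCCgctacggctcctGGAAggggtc

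With +1 as the RefSeq start, CCGGAA lay at −44 to −39 in Mfn1, at −18 to −13 and at 20 to 25 in the upstream and the principal promoter of Fis1, and at −65 to −60 on the opposite strand in Usp30. The fifth copy was in a Dnm1l promoter, at 14 to 19 from a start at position 16358575 of chromosome 16, and no Ets1 peak covered it. The Mfn1 letters lay within the beige peak, both Fis1 copies lay within beige and CS peaks, and the Usp30 copy lay in no Ets1 peak of the 3 lists. Mfn2, Opa1, Mff, Pink1 and Bnip3 had Ets1 promoter peaks in at least 1 list and no CCGGAA in these windows. The Pink1 window, around a start at 138326296, did not overlap its Ets1 peaks, at chr4:138325621-138326125 in beige and chr4:138325698-138326086 in CS. The beige summit of Mff and the CS summit of Bnip3 also lay outside these windows. GGAA alone was present in 13 of the 14 promoters, beside 96.0% of all promoters, which is nearly every one.

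Around the summits, the bases where the peaks were highest, CCGGAA was found within 100 bp at 2 of 7 genes with a promoter peak in beige, Mfn1 and Fis1 (Bnip3l, which had a promoter peak in all 3 lists and no entry in the promoter table, was not read here), beside 21.2% of all 11068 beige promoter peaks. It was found at 0 of 7 in CS, beside 17.6% of 6935 peaks, and at 0 of 1 in RT, beside 12.1% of 817 peaks. AAGGCC was found at 2 of 7 in beige (Dnm1l and Mff), 2 of 7 in CS (Dnm1l and Pink1) and 0 of 1 in RT, beside 13.7%, 14.2% and 15.1% of all promoter peaks. A match is a description of letters and not a bound site, and these counts rest on 7 genes or fewer.

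The fusion genes differed from each other in the Ets1 lists. Mfn1 (ENSMUSG00000027668.13, chr3:32529465-32579239, plus strand) had 1 Ets1 promoter peak, in beige, with −log10 q of 18.5 at 18.6% of the list and its summit on an annotated TSS, and no promoter peak in CS or RT. None of the other 9 genes had this pattern, a peak in beige and none in CS or RT. The strongest Ets1 peak of its region was not its own: the promoter of the neighbouring zinc finger gene Zfp639, 18.9 kb upstream, had a peak in all 9 lists, at 1.99%, 3.74% and 19.2% of the Ets1 lists of beige, CS and RT.

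H3K27ac at the main Mfn1 promoter was weak in the knock-in pair, with −log10 q of 2.60 at 65.3% of the list in EA+/+ and 2.54 at 76.4% in EC+/+. EA+/+ had a further peak of 3.29 at 46.7% by an alternative TSS inside the gene, 733 bp upstream of it in an intron. In the other pair the values were 22.0 at 13.5% in EAKO and 29.2 at 9.84% in Flox. ATAC gave 79.0 at 6.98% in EAKO and 116 at 5.79% in Flox, so the promoter was open in both genotypes.

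Mfn2 (ENSMUSG00000029020.13, chr4:147873599-147904704, minus strand) had Ets1 promoter peaks of 8.24 at 41.4% of the list in beige and 3.91 at 44.3% in CS, and none in RT. Their summits lay 231 and 208 bp upstream of a TSS. A stronger beige peak of 35.8 at 7.80% of the list, at chr4:147906179-147906591, lay 1.70 kb upstream of the start, outside any promoter window, and neither CS nor RT had a peak there. Downstream, the promoters of the neighbours Fv1 and Miip shared the strongest beige peak of the region, 47.5 at 5.18% of the list. The site 1.70 kb upstream also held H3K27ac peaks in EAKO (38.9) and Flox (45.6) and ATAC peaks in EAKO (90.9) and Flox (91.3). It held none in EA+/+ or EC+/+, the shorter H3K27ac lists.

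At the Mfn2 promoter itself H3K27ac stood high in each list, with −log10 q of 10.5 in EA+/+ and 10.5 in EC+/+, at 3.53% and 7.11% of their lists, and of 52.4 in EAKO and 75.4 in Flox, at 3.16% and 1.60%. ATAC was weaker by place, with 15.6 at 50.4% in EAKO and 41.3 at 27.7% in Flox. In both ATAC lists the Mfn2 promoter was thus placed lowest of the 10 genes, whereas its upstream site stood at 4.97% in EAKO and at 9.79% in Flox.

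Opa1 (ENSMUSG00000038084.16, chr16:29579334-29654884, plus strand) showed the reverse of Mfn1, with an Ets1 promoter peak in CS and none in beige or RT. The CS peak had −log10 q of 7.32 at 17.1% of the list, with its summit 13 bp upstream of the TSS. No beige or RT peak lay anywhere in its region of 116 kb, and no other protein-coding gene lies there. H3K27ac at the promoter gave 12.3 and 12.7 in EA+/+ and EC+/+, at 2.17% and 4.32% of the lists, and 50.8 and 51.9 in EAKO and Flox, at 3.39% and 3.85%. ATAC gave 104 at 3.35% in EAKO and 132 at 3.96% in Flox. No ATAC library of beige cells was analysed here.

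The fission genes all had Ets1 promoter peaks in beige and CS and none in RT, as had Mfn2 and Pink1. An Ets1 promoter peak in RT was found at 4.06% of all genes. Dnm1l (ENSMUSG00000022789.15, chr16:16312230-16358959, minus strand) had a peak of 6.21 at 53.0% of the list in beige and of 11.5 at 7.00% in CS, with summits 37 and 32 bp upstream of a TSS. Its place was thus low in beige and high in CS. The promoter of the neighbour Yars2, the mitochondrial tyrosyl-tRNA synthetase, had peaks in the same libraries, of 14.2 at 24.6% in beige and 2.87 at 67.5% in CS, with the opposite order of places. The H3K27ac promoter peak of Dnm1l was 9.65 at 4.53% in EA+/+ and 19.8 at 1.16% in EC+/+, and 60.6 at 2.24% in EAKO and 105 at 0.493% in Flox. In both pairs the peak of Dnm1l stood at a stronger place in the control, EC+/+ or Flox, as did that of Bnip3l. Of all genes with a promoter peak in both lists of a pair, 47.7% stood at a stronger place in EA+/+ and 37.6% in EAKO. At the Dnm1l promoter ATAC gave 55.1 at 13.5% in EAKO and 121 at 5.20% in Flox.

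Mff (ENSMUSG00000026150.14, chr1:82724890-82752394, plus strand) had Ets1 promoter peaks of 23.1 at 14.2% in beige and 13.8 at 4.72% in CS, the strongest place of any of the 10 genes in the CS list. The CS summit lay 1 bp from a TSS and the beige summit 147 bp downstream of the nearest TSS. No other Ets1 peak lay in its region in any of the 3 lists. H3K27ac gave 12.3 at 2.13% in EA+/+ and 10.7 at 6.80% in EC+/+, and 28.5 at 9.56% in EAKO and 39.3 at 6.37% in Flox. ATAC gave 37.6 at 22.5% in EAKO and 64.6 at 16.5% in Flox.

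Fis1 (ENSMUSG00000019054.13, chr5:136953275-136966234, plus strand) has promoters 8.80 kb apart, and Ets1 peaks lay at both in the same libraries. In beige the peak at the principal TSS had −log10 q of 39.1 at 6.81% of the list and the one at the upstream TSS 32.3 at 9.08%. In CS these were 5.46 at 26.9% and 4.07 at 42.4%, and RT had none. Fis1 also had the strongest place of the 10 genes in both ATAC lists. In EAKO this was 0.489% with −log10 q of 152 at the principal promoter, and 131 at 1.21% at the upstream one. In Flox the ATAC values were 182 at 0.711% and 173 at 1.05%.

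H3K27ac separated the Fis1 promoters in the knock-in pair. The principal promoter had a peak of 6.66 at 11.4% of the list in EA+/+ and of 7.60 at 14.1% in EC+/+, but the upstream promoter had one in EC+/+ alone, of 4.65 at 33.8%. In the knock-out pair both promoters were marked, with 29.2 at the principal and 23.2 at the upstream promoter in EAKO and 49.3 and 51.4 in Flox. The order of the promoters by place was thus reversed between EAKO and Flox, with little between them in Flox, where they stood at 4.24% and 3.92%.

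Among the mitophagy genes, Pink1 (ENSMUSG00000028756.12, chr4:138313409-138326307, minus strand) was the gene whose strongest Ets1 promoter peaks had summits farthest downstream of the nearest TSS. Its Ets1 promoter peaks had −log10 q of 12.0 at 29.4% in beige and 12.2 at 6.24% in CS, with summits in an intron 513 and 465 bp downstream of a TSS, and none in RT. The H3K27ac and ATAC summits lay between 394 and 553 bp downstream in the 6 other lists. H3K27ac gave 6.21 at 13.6% in EA+/+ and 3.75 at 48.1% in EC+/+, and 19.5 at 15.7% in EAKO and 37.5 at 6.86% in Flox. ATAC gave 52.7 at 14.4% in EAKO and 70.3 at 14.7% in Flox, which is nearly the same place. The beige list also held peaks at the promoters of the neighbours Ddost (23.9), a subunit of the oligosaccharyltransferase, and Cda (12.6), cytidine deaminase, in the region of Pink1.

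**Figure D2:**
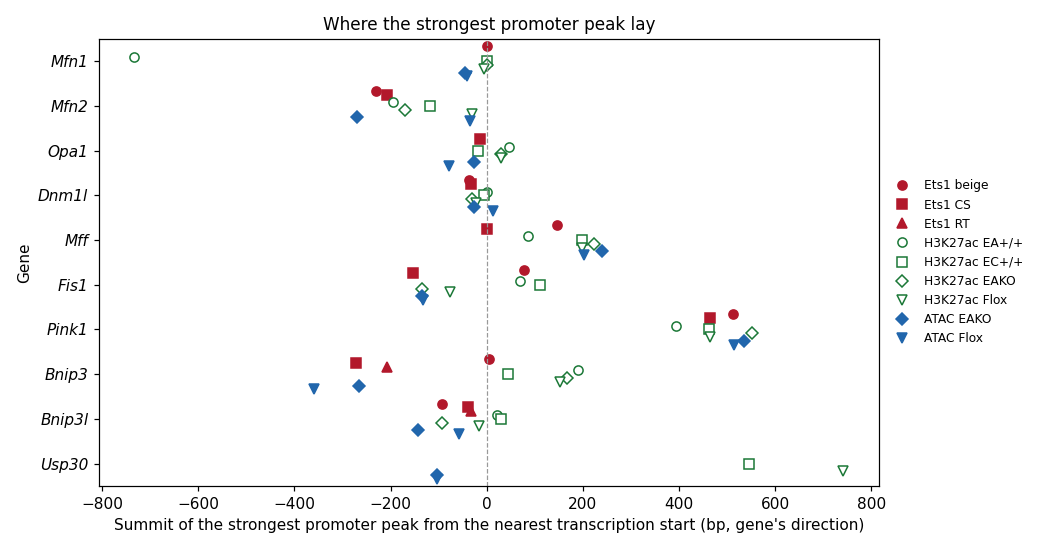
Distance in bp from the nearest annotated TSS to the summit of the strongest promoter peak, for each gene (rows) and library (symbols), with negative values upstream. Pink1 summits lie between 394 and 553 bp downstream in 8 lists, and the other Ets1 summits between 271 bp upstream and 147 bp downstream.

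In RT, Ets1 peaks were found at the promoters of Bnip3 and Bnip3l and of no other gene of the 10, and both also had one in beige and CS. Bnip3 (ENSMUSG00000078566.8, chr7:138890836-138909519, minus strand) had −log10 q of 17.0 at 20.3% in beige, 3.62 at 51.5% in CS and 5.66 at 20.9% in RT, where it was peak 846 of 4056. In the CS list it was peak 7647 of 14858. When the CS list was cut to its strongest 4056 peaks, the length of the RT list, the Bnip3 peak was therefore in RT alone. The share of all genes in RT alone after that cut was not counted. H3K27ac gave 5.89 at 15.1% in EA+/+ and 4.19 at 39.1% in EC+/+, and 16.6 at 19.1% in EAKO and 18.3 at 16.9% in Flox, and ATAC 16.8 in EAKO, peak 39307 of 82839, and 42.4 in Flox, peak 24007 of 88977.

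Bnip3 also had Ets1 sites away from its promoter. A site 10 kb upstream, at chr7:138919074-138919911 over all libraries, had a peak in 8 of the 9 lists, with Ets1 values of 24.0 at 13.6% of the list in beige and 6.34 at 21.9% in CS and none in RT. Both stood at a stronger place than the promoter peak of the same library. H3K27ac there gave 3.64 in EA+/+ and 5.56 in EC+/+, and 16.7 in EAKO and 22.7 in Flox, and ATAC 49.4 in EAKO and 79.5 in Flox. A further site in an intron, 2.23 kb into the gene, had the strongest Ets1 peak of the region in beige, 31.9 at 9.26% of the list, and none in CS or RT. It was marked by H3K27ac in EAKO (19.5) and Flox (31.1) and open in EAKO (48.9) and Flox (61.0), but without an H3K27ac peak in EA+/+ or EC+/+. The upstream site of Mfn2, the Cda promoter in the Pink1 region and a site downstream of Bnip3l, at chr14:66973867-66974882, had peaks in the same lists. The EA+/+ and EC+/+ lists were shorter, with 38484 and 33713 H3K27ac peaks against 74682 and 86834 in EAKO and Flox.

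Bnip3l (ENSMUSG00000022051.15, chr14:66985239-67008877, minus strand) had the strongest Ets1 promoter peak of the 10 genes in beige, with −log10 q of 112 at 1.03% of the list, peak 314 of 30553. In CS it had 9.64 at 10.0% and in RT 3.03 at 60.6%, and the summits lay 93, 38 and 33 bp upstream of a TSS in beige, CS and RT. The H3K27ac peak was 2.39 at 75.8% in EA+/+ and 5.56 at 25.1% in EC+/+, and 39.0 at 5.68% in EAKO and 54.4 at 3.53% in Flox. ATAC gave 142 at 0.770% in EAKO and 156 at 1.94% in Flox. An alternative promoter 18.0 kb inside the gene had an Ets1 peak in beige (6.70 at 49.3%) and not in CS or RT, an H3K27ac peak in EC+/+ (1.86), EAKO (21.4) and Flox (23.8) and not in EA+/+, and ATAC peaks of 51.2 in EAKO and 50.1 in Flox. The summits of these peaks lay in an intron, 924 to 977 bp upstream of the alternative TSS and so near the edge of the promoter window.

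Usp30 (ENSMUSG00000029592.11, chr5:114065461-114124720, plus strand, principal TSS at 114100315) had no Ets1 promoter peak in beige, CS or RT. Its promoter was open, with ATAC peaks of 43.5 at 18.8% in EAKO and 58.9 at 18.6% in Flox and summits 104 bp upstream of the TSS. H3K27ac peaks lay farther in, with 2.58 at 75.0% of the list in EC+/+, 545 bp downstream of a TSS, and 6.04 at 47.7% in Flox, 742 bp downstream, and none in EA+/+ or EAKO. Ets1 peaks of its region lay elsewhere. An intron site 17.9 kb from the principal TSS had a CS peak of 3.39 at 54.8% of the list and H3K27ac peaks in all 4 lists, at 10.4% in EA+/+, 9.88% in EC+/+, 88.8% in EAKO and 62.2% in Flox, but no ATAC peak in EAKO or Flox. The promoter of the neighbour Ung, a uracil DNA glycosylase, had Ets1 peaks of 14.3 in beige and 9.31 in CS, the strongest of the region in each.

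**Figure D3:**
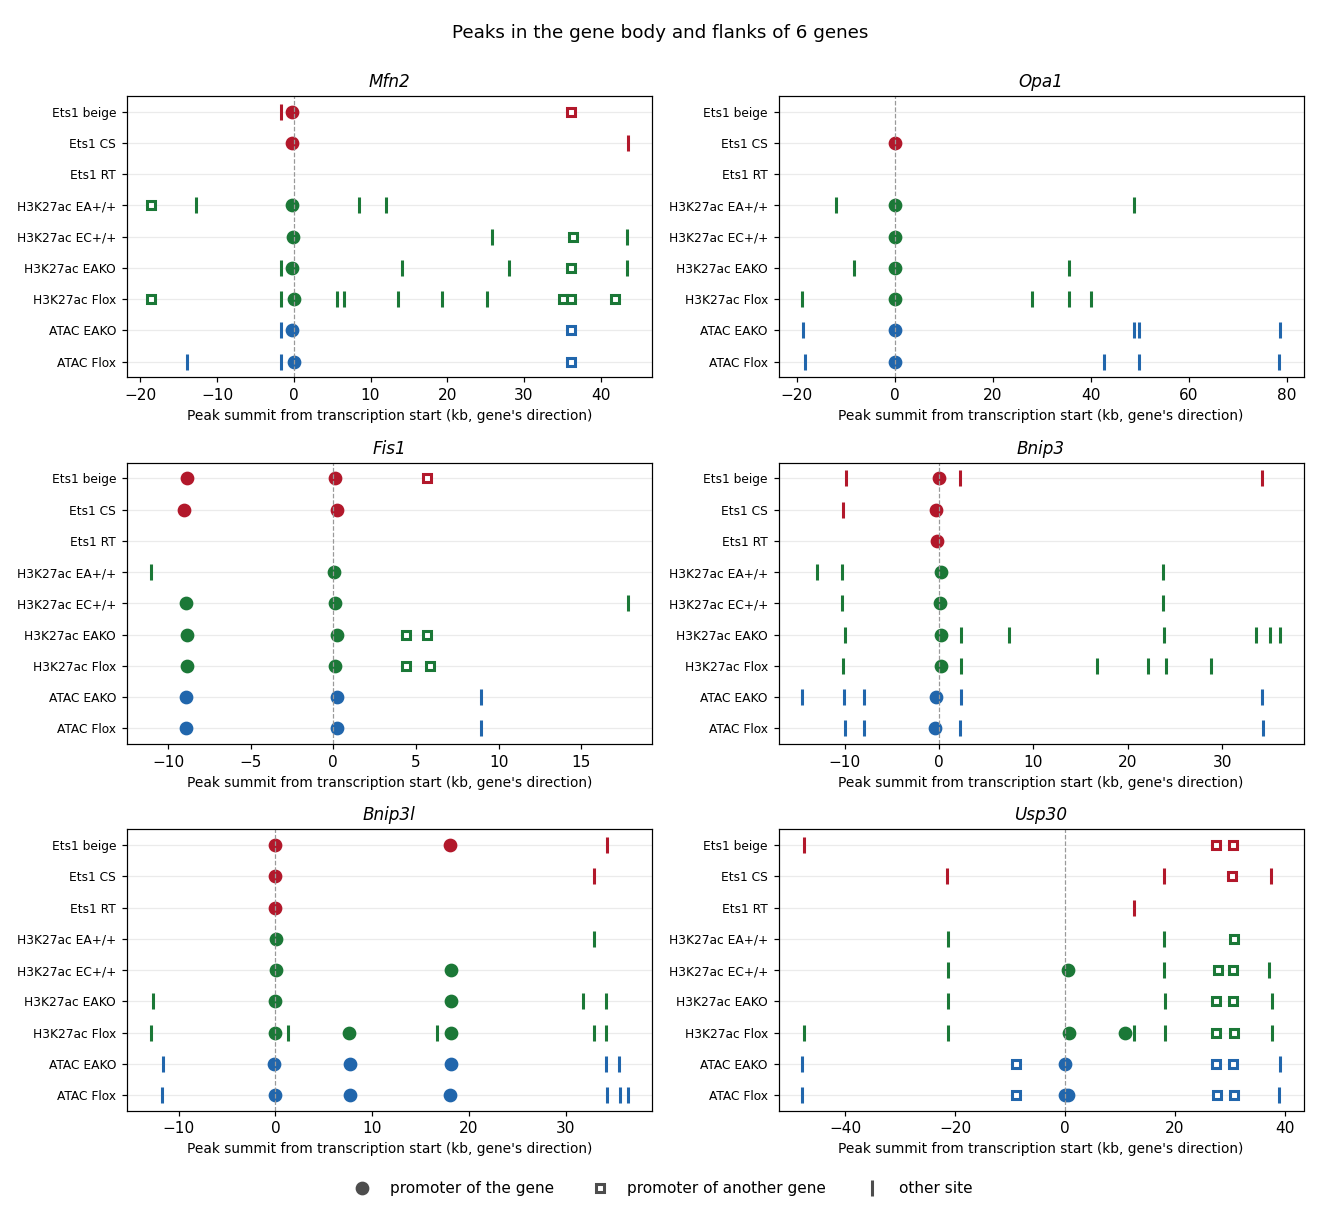
Summits of all peaks in the regions of 6 genes by library (rows, red Ets1, green H3K27ac, blue ATAC), in kb from the principal TSS (the outermost for Opa1), with positive values in the direction of the gene. The site 10 kb upstream of Bnip3 appears in 8 of 9 lists, Fis1 shows 2 promoters, Opa1 has 1 Ets1 peak and Usp30 has no Ets1 peak at its promoter.

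Cold stress was compared with room temperature to ask where Ets1 bound under the cold. Of the 10 genes, 6 had an Ets1 promoter peak in CS and not in RT (Mfn2, Opa1, Dnm1l, Mff, Fis1 and Pink1), beside 29.1% of all genes, and 42.1% of the genes whose promoters were open in Flox. None had one in RT alone, beside 0.428% of all genes. Bnip3 and Bnip3l had one in both, and Mfn1 and Usp30 in neither. In the regions, 16 of 19 CS peaks overlapped no RT peak (84.2%, Wilson 95% interval 62.4% to 94.5%), beside 88.0% of all CS peaks, and 1 of 4 RT peaks overlapped no CS peak (25.0%, 4.56% to 69.9%), beside 55.9% of all RT peaks. The intervals cover counting error only. The RT list was the shortest of the 9, and when the CS list was cut to that length the CS-only genes were Opa1, Dnm1l, Mff, Fis1 and Pink1. The Fis1 peak was near the cut, at peak 4002 of the CS list, and the share of all genes after the cut was not counted.

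Beige cells were set beside CS and RT, sharing those libraries with the comparison above. Against CS, 1 gene had a promoter peak in beige alone (Mfn1), beside 17.1% of all genes, and 1 in CS alone (Opa1), beside 3.39%, with Dnm1l as a further gene in CS alone when the beige list was cut to the length of the CS list. The other genes with a peak, 7 in number, had it in both. Against RT, 6 genes had a peak in beige alone (Mfn1, Mfn2, Dnm1l, Mff, Fis1 and Pink1), beside 42.8% of all genes and 62.7% of those open in Flox, and 0 in RT alone, beside 0.401%. When the beige list was cut to its strongest 4056 peaks, the length of the RT list, 1 gene was in beige alone (Fis1) and 1 in RT alone (Bnip3). Shares of all genes were not counted for either cut of the beige list. In the regions, 12 of 25 beige peaks overlapped no CS peak (48.0%, 30.0% to 66.5%), beside 78.7% of all beige peaks, and 6 of 19 CS peaks overlapped no beige peak (31.6%, 15.4% to 54.0%), beside 56.0% of all CS peaks. Against RT, 22 of 25 beige peaks were single (88.0%, 70.0% to 95.8%), beside 96.8%, and 1 of 4 RT peaks (25.0%, 4.56% to 69.9%), beside 75.7%. At promoters of the 10 genes, 2 of 10 beige peaks overlapped no CS peak and 8 of 10 no RT peak. Elsewhere in the regions these were 10 of 15 and 14 of 15. For CS peaks against beige it was 1 of 9 at these promoters and 5 of 10 elsewhere. Of the 25 beige peaks, 10 lay at promoters of the 10 genes and 8 at those of neighbours, whereas 11068 of all 30553 beige peaks lay at a promoter. The shares over whole lists were not split in this way, so they are not a like comparison for these regions.

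By place, Mfn2, Fis1, Bnip3 and Bnip3l stood at a stronger place in beige, and Dnm1l, Mff and Pink1 in CS, while 67.2% of the 6434 genes marked in both lists stood at a stronger place in beige.

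**Figure D4:**
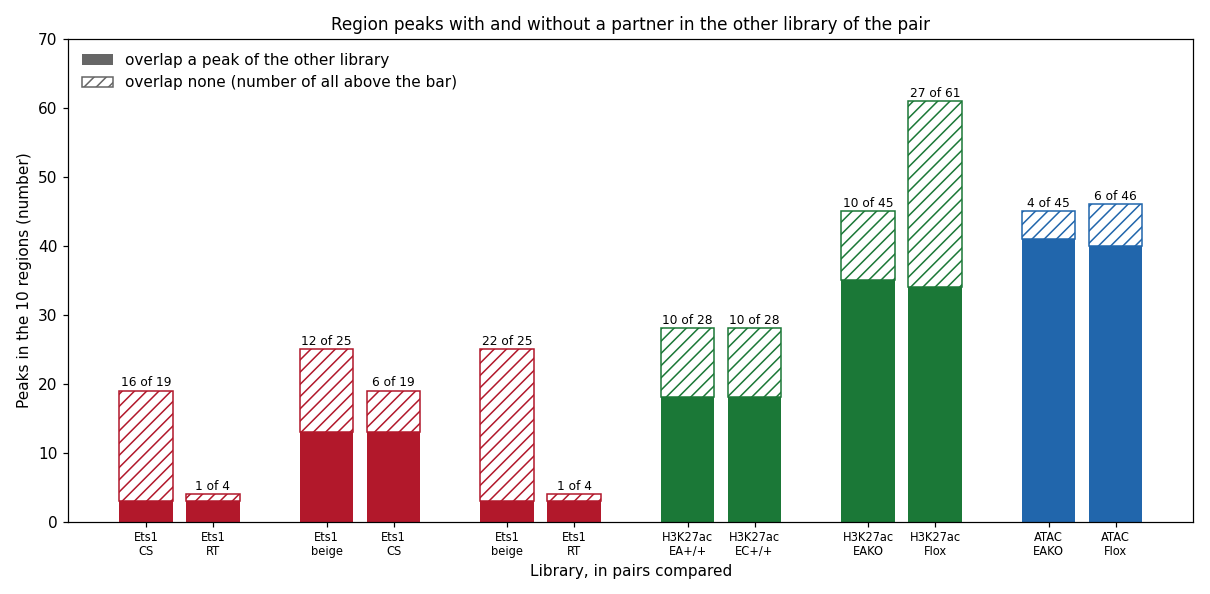
Number of peaks in the regions of the 10 genes, by library, in the 6 pairs compared. Filled parts overlap a peak of the other library of the pair and hatched parts overlap none, from 22 of 25 beige peaks against RT to 4 of 45 ATAC peaks of EAKO against Flox.

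Ets1 promoter peaks of the 10 genes fell on sites that were open and acetylated in Flox adipocytes, as did most Ets1 promoter peaks of all genes. All 10 beige peaks, 9 CS peaks and 2 RT peaks at these promoters overlapped an ATAC peak of Flox, beside 95.6%, 92.4% and 87.9% of all Ets1 promoter peaks of those lists. The same 10, 9 and 2 peaks overlapped an H3K27ac peak of Flox, beside 91.4%, 91.9% and 89.4%. With peaks of all lists merged, the 10 regions held 96 sites, of which 32 had an Ets1 peak and 26 of these also an ATAC peak. The 6 Ets1 sites without an ATAC peak were 3 in Usp30 introns, 1 downstream of Mfn2, 1 downstream of Bnip3l and 1 at the promoter of Cldn15 beside Fis1.

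The knock-in pair addressed what raised adipocyte Ets1 does to H3K27ac. No gene of the 10 had a promoter peak in EA+/+ alone, beside 7.33% of all genes, and 1 had one in EC+/+ alone, Usp30, beside 8.89%. The Usp30 peak in EC+/+ stood at 75.0% of its list, and with peaks of −log10 q of at least 3 alone, Mfn1 was in EA+/+ alone. This rested on the EA+/+ peak by the alternative TSS of Mfn1, since both peaks at its main promoter, 2.60 in EA+/+ and 2.54 in EC+/+, fell below 3. With that threshold the gene in EC+/+ alone was Bnip3l in place of Usp30, and with the outermost TSS of each gene it was Fis1. In the regions, 10 of 28 EA+/+ peaks overlapped no EC+/+ peak (35.7%, 20.7% to 54.2%), beside 60.7% of all EA+/+ peaks, and 10 of 28 EC+/+ peaks overlapped no EA+/+ peak (35.7%, 20.7% to 54.2%), beside 54.9% of all EC+/+ peaks. At promoters of the 10 genes these were 1 of 10 EA+/+ and 3 of 12 EC+/+ peaks, and elsewhere 9 of 18 and 7 of 16. The shares over whole lists were not split by promoter, so they are not a like comparison for these regions. Among the 9 genes with a promoter peak in both, 7 stood at a stronger place in EA+/+ and 2 in EC+/+ (Dnm1l and Bnip3l), while 47.7% of 9450 genes stood at a stronger place in EA+/+.

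The knock-out pair was compared in the same way for H3K27ac. No gene had a promoter peak in EAKO alone, beside 1.75% of all genes, and 1 had one in Flox alone, again Usp30, beside 5.18%. With the outermost TSS of each gene alone, no gene was in Flox alone. In the regions, 10 of 45 EAKO peaks overlapped no Flox peak (22.2%, 12.5% to 36.3%), beside 26.0% of all EAKO peaks, and 27 of 61 Flox peaks overlapped no EAKO peak (44.3%, 32.5% to 56.7%), beside 35.9% of all Flox peaks. Mfn2 contributed 11 of the 61 Flox peaks and 6 of the 45 EAKO peaks, with 5 intron peaks in Flox and 2 in EAKO. By place, 8 of 9 genes stood at a stronger place in Flox, Opa1 being the exception, and 37.6% of 12879 genes stood at a stronger place in EAKO.

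For ATAC, all 10 promoters had a peak in EAKO and in Flox, with 0 genes in EAKO alone and 0 in Flox alone, beside 0.784% and 2.54% of all genes. In the regions, 4 of 45 EAKO peaks overlapped no Flox peak (8.89%, 3.51% to 20.7%), beside 8.98% of all, and 6 of 46 Flox peaks overlapped no EAKO peak (13.0%, 6.12% to 25.7%), beside 16.6% of all. By place, Opa1, Fis1, Pink1 and Bnip3l stood at a stronger place in EAKO and the 6 other genes in Flox, while 37.0% of 14301 genes stood at a stronger place in EAKO. The shares at these genes were thus near those of the whole lists in the ATAC pair.

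A wider list of 40 genes of mitochondrial dynamics and mitophagy was counted in the same way. All 40 promoters were open in Flox ATAC, so the 14858 genes open there are again the nearer comparison. Of these, 68.1%, 47.4% and 5.80% had an Ets1 promoter peak in beige, CS and RT. A peak in 1 list alone against RT was found at 42.1% of them for CS and 62.7% for beige. Ets1 promoter peaks were found at 35 of the 40 in beige (87.5%, beside 46.4% of all genes), 26 in CS (65.0%, beside 32.7%) and 1 in RT (2.5%, beside 4.06%), the last at Immt, which organises the cristae. In CS against RT, 25 of the 40 had a peak in CS alone (62.5%, beside 29.1% of all genes), with the strongest at Mtfr1 (11.5), a fission regulator, Oma1 (10.7), the protease that cuts Opa1 under stress, and Bcl2l13 (10.4), a mitophagy receptor. In beige against RT it was 34 of 40, beside 42.8% of all genes, led by Phb2 (114), an inner membrane mitophagy receptor, Nbr1 (75.9), an autophagy receptor, and Yme1l1 (70.5), the other protease of Opa1, and each of these 3 peaks also overlapped the promoter of a neighbouring gene. In beige against CS, 9 had a peak in beige alone (22.5%), beside 17.1% of all genes and 24.8% of those open in Flox. The strongest was at Sqstm1 (31.4), the autophagy receptor p62, whose peak also overlapped the promoter of the neighbour Mgat4b. Next were Miga2 (30.6), a fusion factor, and Tomm7 (18.4), which helps to hold Pink1 on the outer membrane. None of the 40 had a peak in CS alone against beige, beside 3.39% of all genes, so with the full lists Opa1 was the only gene of the 10 and the 40 with that pattern.

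H3K27ac marked 32 of the 40 promoters in EA+/+ (80.0%, beside 50.4% of all genes) and 35 in EC+/+ (87.5%, beside 52.0%), and 38 in EAKO (beside 60.5%) and 38 in Flox (beside 63.9%). Among the genes open in Flox ATAC these shares were 71.1%, 73.7%, 86.6% and 90.6%. In EA+/+ alone were 3 genes, Nipsnap2 (4.07), Tbk1 (3.95) and Usp15 (3.27), which is 7.5% beside 7.33% of all genes, a share near the background. In EC+/+ alone were 6 (15.0%, beside 8.89%), led by Tomm7 (5.08), Nbr1 (4.95) and Mief2 (3.36), and the Nbr1 and Mief2 peaks also overlapped a neighbouring gene's promoter. In EAKO alone was Mtfp1 (23.6), an inner membrane fission factor, 1 gene of 40 (2.5%) beside 1.75% of all genes. In Flox alone was Miga1 (4.20), also 1 of 40, beside 5.18%. The Mtfp1 promoter was open in both genotypes, with ATAC peaks of 96.1 in EAKO and 141 in Flox, as were all 40.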

How the data were processed

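The authors trimmed adaptors with trimmomatic, mapped reads to mm10 with BWA, and ran MACS2 on every library separately, with a q-value threshold of 0.05. SAMtools and deepTools are named in the submitters' processing notes too. Whether MACS2 had a control library, or regions of excess signal were filtered, is not given in the sources used here. The deposited peak lists hold for each peak a score, a fold enrichment (a linear ratio over the local background), the −log10 of the p-value, the −log10 of the q-value and the summit. These values depend on depth and background, which lists do not show, so they rank peaks within a list and were never divided between lists.

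Peaks were overlapped by at least 1 bp with promoters (1 kb on each side of a TSS) and regions (20 kb on each side of the gene) of GENCODE M21 in Python 3.11.15 (numpy 2.4.6, pysam 0.24.0). The code was tested on simulated data and against bedtools 2.31.1. Coordinates are 1-based on mm10, and no peak ran past a chromosome end of GRCm38.p6. Distances are to the summit. Shares carry Wilson 95% intervals.

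All 10 genes are named. Of the wider list, up to 3 genes per comparison and direction are named, those with the highest −log10 q among promoters with a peak in 1 library alone. Genes that share a promoter peak with a member, and neighbours holding the strongest peak of a region, may also be named. The members and lists were chosen with earlier results of these data known.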

Additional observations from a re-analysis of the deposited data

How the results depend on the processing

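With 1 library per group, presence of a peak is 1 observation, and the lists do not show sequencing depth. The paper gives read totals, but none were used here. They were close to each other for RT and CS, and for H3K27ac in EAKO and Flox. They were higher in beige than in CS or RT, in EA+/+ than in EC+/+, and for ATAC in Flox than in EAKO. A weak peak present in 1 list and absent from the other may differ by little. No paired analysis was possible because each group has 1 library. Alternatives were a −log10 q of at least 3, promoters of 3 kb or 0.5 kb, the summit inside the promoter, the outermost TSS, equal numbers of best peaks, 50% of a peak's length shared, no flanks and flanks of 50 kb. Counts of genes with a promoter peak moved by at most 1.5 times in each of the 9 libraries under all of these that apply to them.

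Genes in RT alone became 1 instead of 0 against CS, and 1 instead of 0 against beige, with promoters of 3 kb (Usp30) and with equal numbers of best peaks (Bnip3). With equal numbers, genes in CS alone against beige became 2 (Opa1 and Dnm1l) and genes in beige alone against RT fell to 1 (Fis1). Shares of all genes were counted for the main settings only. With −log10 q of at least 3, genes in EA+/+ alone against EC+/+ became 1 (Mfn1, by an alternative TSS), and the 1 gene in EC+/+ alone was Bnip3l instead of Usp30. With the outermost TSS, genes in Flox alone against EAKO for H3K27ac became 0 and the 1 gene in EC+/+ alone was Fis1. Sharing 50% of the length gave 94.7% single for CS against RT and 96.0% for beige against RT. The stricter q gave 0% single for RT against CS and 0% for RT against beige, and regions with no flanks gave 30.0% single for beige against CS. GGAA in place of CCGGAA near summits gave 5 genes in beige, 7 in CS and 1 in RT, and 200 bp gave 2 in CS. The 55 other values of region shares stayed within the interval given for the share, and the other counts within 1.5 times.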

Other observations

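Of the 96 merged sites in the regions of the 10 genes, 37 had a peak in a single library, and in none of these was it an Ets1 library. Only 3 sites had a peak in all 9 lists: the promoters of Bnip3 and Bnip3l and that of Zfp639 upstream of Mfn1. Sites that were neither the promoter of the gene nor of a neighbour numbered 67, of which 13 had an Ets1 peak and 2 had a peak in 6 or more lists, the site upstream of Bnip3 and 1 downstream of Usp30.

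The Pink1 promoter peak had the same first and last base, 138325698 and 138326086, in the Ets1 list of CS and the H3K27ac list of EA+/+. This held for 15 of the 7409 CS peaks that overlapped an EA+/+ peak (0.202%), and Pink1 was the only one of the 10 regions where any pair of lists had such a peak.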
